A study of Mus musculus with 4 samples.

Results

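The open chromatin of 3 cytokine receptor loci, Flt3, Csf1r and Csf2rb, was described in cDC1, the classical dendritic cells that present antigen to cytotoxic T cells, and in pDC, the plasmacytoid dendritic cells known for making interferon. The members were chosen by position alone. They are all intervals of the peak lists and all footprints that overlapped one of 3 windows of the mm9 genome, on chromosome 5 from 148.10 to 148.26 Mb (Flt3), on chromosome 18 from 61.22 to 61.34 Mb (Csf1r) and on chromosome 15 from 78.10 to 78.22 Mb (Csf2rb). The windows held 64 of 83701 cDC1 intervals and 39 of 51941 pDC intervals, with 352 of 513689 cDC1 footprints and 237 of 312959 pDC footprints. Both cell types were grown from mouse bone marrow, which was first expanded with a cytokine cocktail whose members the methods do not list. The culture ended with Flt3 ligand, the ligand of the first of these receptors, and the cells were then sorted. By the study's methods, cDC1 were CD11c+ CD11b+ XCR1+ cells and pDC were CD11c+ CD11b- B220+ cells. The methods name no further treatment and no allele. Omni-ATAC-seq was made from 2 replicate samples of each, and the authors merged the replicates before footprinting; whether peaks were called before or after the merge is not stated, and there is 1 peak list for each cell type. Neither the labels nor the methods tell whether replicates came from separate cultures.

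These receptors carry the growth factor signals from which dendritic cells arise. Flt3 and Csf1r are receptor tyrosine kinases of one family. Flt3 drives the formation of dendritic cells from bone marrow progenitors and stays on cDC1 and pDC alike, and Csf1r, the receptor of M-CSF and IL-34, marks monocytes, macrophages and dendritic cell progenitors. In macrophages, transcription of Csf1r relies on an enhancer inside the gene. Csf2rb is the common beta chain shared by the receptors of GM-CSF, IL-3 and IL-5, and mice carry a second copy beside it, Csf2rb2, that serves the IL-3 receptor. GM-CSF favours classical dendritic cells in culture and holds back the growth of pDC.

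An interval is a stretch that MACS2 called as open. Its −log10 q and its fold enrichment over the MACS2 background are the authors' deposited values, taken at the strongest summit. A footprint is a short stretch inside an interval that HINT-ATAC marked as protected from the transposase, and its deposited tag count is the number of cleavage events assigned to it. Intervals of both lists that overlapped by at least 1 bp were joined into merged regions, numbered from left to right within each window. By the study's totals, the cDC1 library held 1.75 times the reads of the pDC library, and 3.72 times its reads in peaks. Total reads alone thus do not give the difference in tag counts. In 91319 pairs of footprints that share at least 50% of the bases of both, the cDC1 tag count was a median of 3.28 times that in pDC. Tag ratios below are divided by this median, so that a log2 ratio of 0 is the middle of these pairs. Regions without a pair do not enter it. Other scalings divided by the ratio of the mean tag counts of the lists, of the libraries' reads in peaks or of all their reads, with library totals as the study gives them. Since each cell type has 1 list of each kind, no replicate error can be had. Intervals given with ratios are exact 95% intervals and those with shares are 95% Wilson intervals, which cover counting error of the tags or regions alone; neighbouring footprints had nearly equal tag counts and are not independent.

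In the reference annotation of GRCm38, Flt3 lies on chromosome 5 between Urad and Pan3, Csf1r on chromosome 18 between Pdgfrb and Hmgxb3, and Csf2rb on chromosome 15 between Csf2rb2 and Tex33. The lists use mm9 and no mm9 annotation was used here. Exons, introns and start sites could therefore not be placed on the regions, and a region named for a window may belong to one of these neighbours. Csf2rb and Csf2rb2 are close copies: 1788 of 25128 words of 75 bases of the Csf2rb gene (7.12%) occurred unchanged in Csf2rb2 on either strand, against 0 of 25494 for Csf1r in its pseudogene Csf1r-ps. The authors removed reads of low alignment quality, so reads from such shared stretches may be missing from the Csf2rb window in both cell types. How far this touched the values was not tested.

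To show where transcription of the first of these receptors begins, the 250 bases upstream of the RefSeq start of Flt3 are shown (GRCm38.p6, minus strand, chr5:147400490-147400739), with E-box letters (CANNTG, the core read by Tcf4, the main factor of pDC) in capitals.

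Flt3 upstream: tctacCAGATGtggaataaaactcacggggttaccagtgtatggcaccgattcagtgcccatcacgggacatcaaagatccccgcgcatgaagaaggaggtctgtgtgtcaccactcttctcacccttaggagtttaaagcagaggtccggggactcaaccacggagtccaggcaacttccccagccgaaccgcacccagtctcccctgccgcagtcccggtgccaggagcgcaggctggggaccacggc

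The stretch held 1 match to CANNTG on either strand, as did at least 1 in 66.2% of 32851 promoter entries of the same length. It held 0 matches to TGANTCA, the AP-1 core read by Batf3 with Jun partners (6.75% of entries hold one). These are matches of letters. Which mm9 region holds this stretch was not determined.

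The regions of the 3 loci together divided between the cell types in about the same shares as regions genome-wide. The windows merged into 72 regions, of which 33 were listed in cDC1 only (45.8%, 34.8 to 57.3%), 31 in both (43.1%, 32.3 to 54.6%) and 8 in pDC only (11.1%, 5.74 to 20.4%). Over all 93615 merged regions these shares were 45.5%, 43.5% and 11.0%. The Flt3 window held 13 regions of cDC1 only, 14 of both and 2 of pDC only. The Csf1r window held 7, 9 and 3, and the Csf2rb window 13, 8 and 3. Counted by interval, 48.4% of the 64 cDC1 intervals overlapped a pDC interval (49.1% of all cDC1 intervals did), and 79.5% of the 39 pDC intervals overlapped a cDC1 interval (80.3% of all pDC intervals did). In each window the Wilson intervals of the 3 shares take in the genome-wide share. The cDC1 intervals covered 8.68% of the Flt3 window, 6.47% of the Csf1r window and 7.28% of the Csf2rb window, and the pDC intervals 5.57%, 4.67% and 4.65%.

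**Figure D1:**
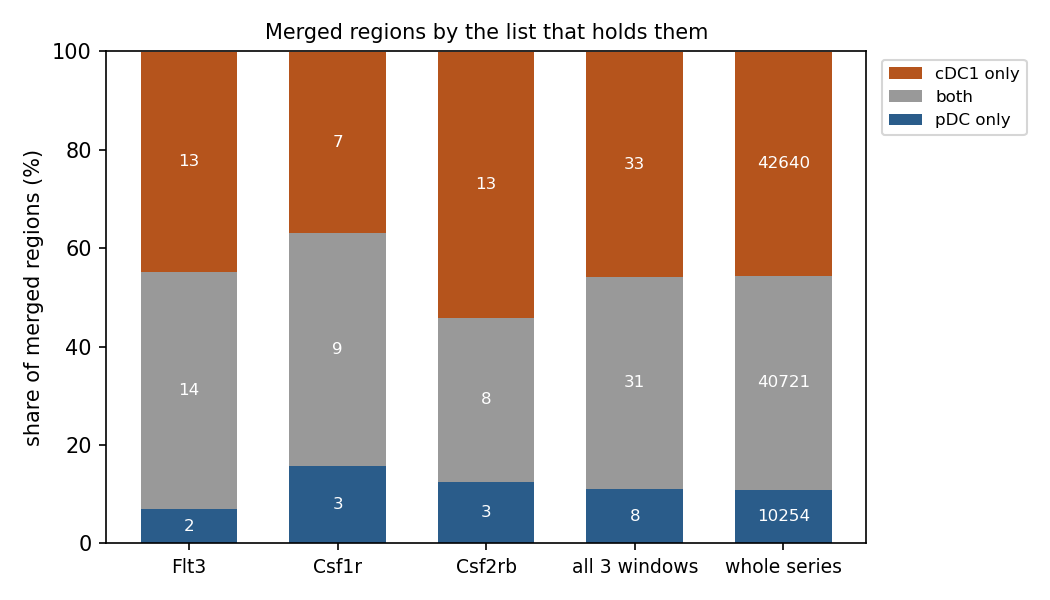
Share of merged regions (y axis, percent) listed in cDC1 only, in both cell types or in pDC only, for each window, the 3 windows together and the whole series; numbers in the bars are regions. The 3 windows together (33, 31 and 8 of 72 regions) divide almost as all 93615 regions do, and the Csf2rb window has the largest share of cDC1 only, 13 of 24.

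The median strength of the intervals within each list varied between the 3 windows, on 11 to 27 intervals per window and cell type. The median −log10 q of a Flt3 interval was 34.3 in cDC1 and 13.9 in pDC, close to the medians of all intervals, 30.4 and 13.5. Csf1r intervals had lower medians in both cell types, 16.1 in cDC1 and 7.89 in pDC. Csf2rb intervals had a median of 18.1 in cDC1, under that of their list, and of 18.7 in pDC, above that of theirs. In numbers of intervals, 15 of 27 Flt3, 5 of 16 Csf1r and 8 of 21 Csf2rb intervals passed the median of the cDC1 list, and 8 of 16, 4 of 12 and 8 of 11 that of the pDC list. These medians compare an interval with its own library and do not set one library against the other.

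**Figure D2:**
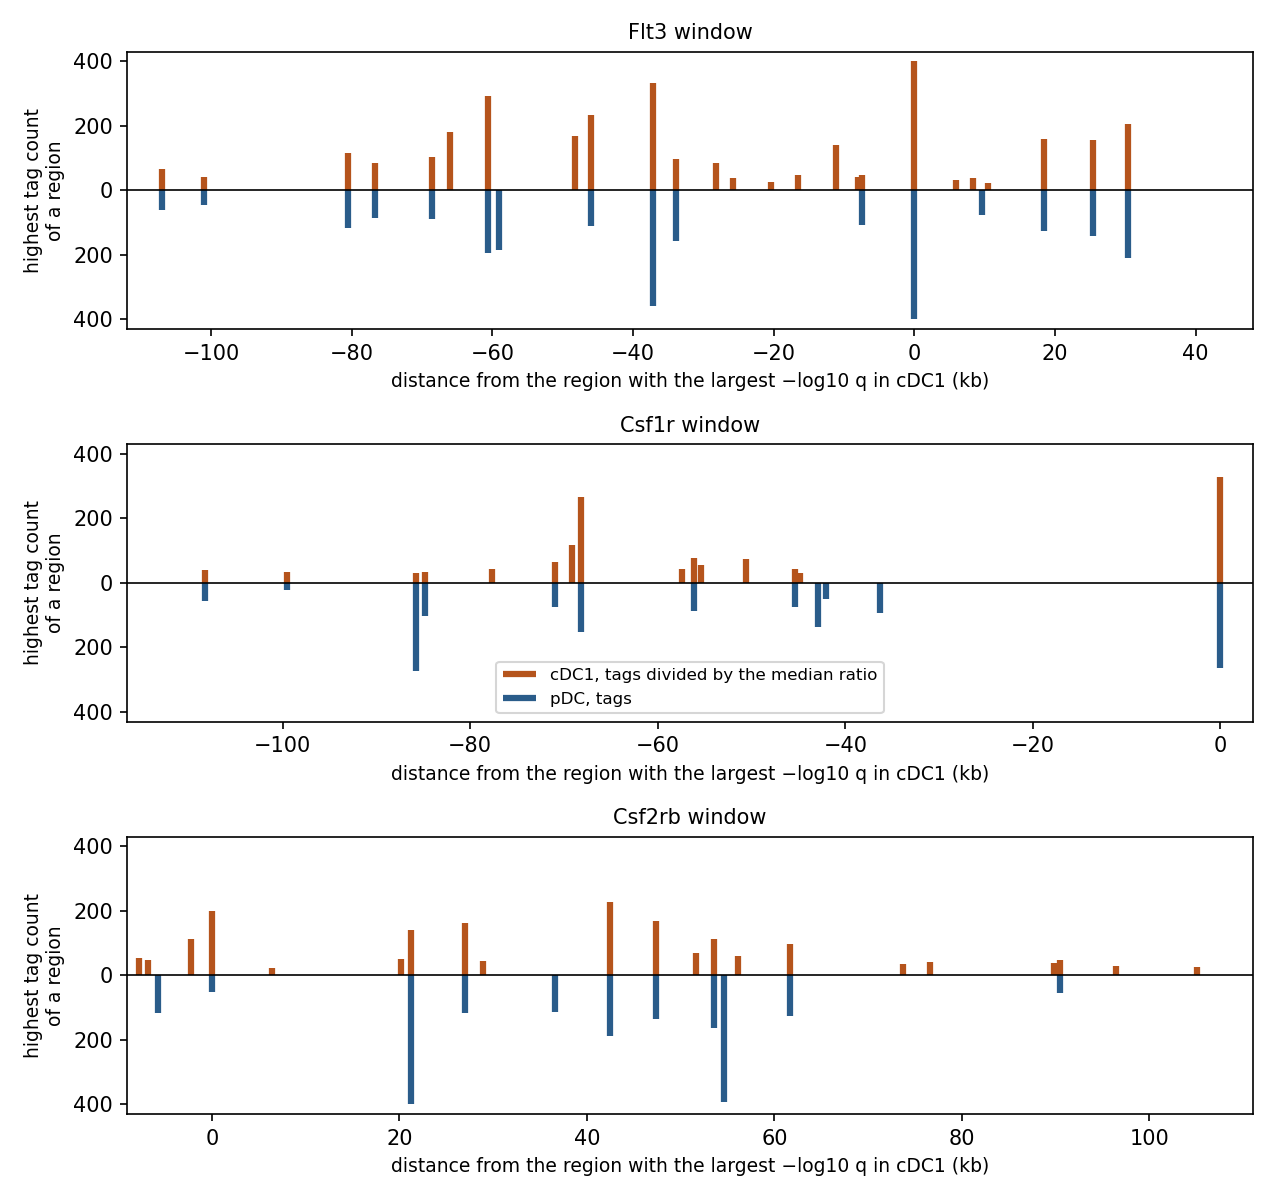
Highest tag count of a footprint in each merged region (y axis), for cDC1 upward after division by the median ratio of 3.28 and for pDC downward, against the distance from the region with the largest −log10 q in cDC1 (x axis, kb), in each window. At Flt3 the tallest bars stand in both directions, whereas the pDC bar at Csf1r region 4 (272 tags) faces a short cDC1 bar, that at Csf2rb region 8 (398 tags) a lower one and that at Csf2rb region 16 (394 tags) none.

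At Flt3, the strongest regions were open in both cell types, as was the strongest region of each list in the other windows. Region 20 (chr5:148211414-148212403) reached a −log10 q of 435 in cDC1, at the 97.1st percentile of that list, and of 88.5 in pDC, at the 92.9th. Its fold enrichment was 13.8 in cDC1 and 8.77 in pDC. It held 8 cDC1 and 10 pDC footprints, with highest tag counts of 1311 in cDC1 and 398 in pDC, and 5 footprints could be paired. The pair with the most tags had 1228 in cDC1 and 288 in pDC, a scaled ratio of 1.30 (1.14 to 1.49). Across the 5 pairs the log2 ratio lay between -0.01 and 0.42. At this scaling no pair of region 20 was 2-fold apart between the cell types. By all reads the log2 ratio of its best pair was 1.29, past 2-fold toward cDC1.

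Regions 7 and 11 completed the strongest 3 of the window in both lists. Region 11 (chr5:148174372-148175193) was the most even of all: its best pair had 917 tags in cDC1 and 280 in pDC, a log2 ratio of 0.00 (-0.19 to 0.20), and its intervals stood at the 94.0th percentile of the cDC1 list (−log10 q 329) and the 92.9th of the pDC list (−log10 q 88.7). It held 16 cDC1 and 7 pDC footprints. Region 7 (chr5:148150979-148151710) was higher in cDC1, with 959 tags in cDC1 and 195 in pDC in its best pair and a log2 ratio of 0.59 (0.36 to 0.82). Its cDC1 interval had a −log10 q of 330 and its pDC interval one of 35.9.

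The Flt3 window also held regions that differed, in both directions. Region 10 (chr5:148165742-148166220) had 769 tags in cDC1 and 106 in pDC, a scaled ratio of 2.21 (1.81 to 2.74). Of all 31914 regions with a pair, 8.93% passed 2-fold toward cDC1, and region 10 was 1 of 10 paired regions at Flt3. The excess in cDC1 lay in its middle: 3 neighbouring pairs had log2 ratios of 1.06, 1.22 and 1.15, while the pair near the left edge had 131 tags in cDC1 and 42 in pDC, a log2 ratio of -0.07. Region 10 held 12 footprints in pDC, which were spread over nearly its whole length with at most 111 tags each, against 6 in cDC1, most of them near the middle.

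Region 19 (chr5:148204104-148204734) was the reverse. A footprint of 42 bp with the same ends in both lists had 140 tags in cDC1 and 105 in pDC, and after scaling was 2.46 times higher in pDC (1.89 to 3.19); genome-wide 12.6% of paired regions were at least 2-fold higher in pDC. The cDC1 interval there had a −log10 q of 14.0, at the 32.5th percentile of the cDC1 list. The pDC interval had one of 12.9, at the 48.6th percentile of the pDC list. Which of the Flt3 regions pass 2-fold rests on the scaling. By reads in peaks, region 10 had a log2 ratio of 0.97, and region 19 had -0.93 by mean tag count and -0.39 by all reads.

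Among regions of one cell type, region 6 (chr5:148145559-148146133), listed in cDC1 only, had a −log10 q of 128 and a highest tag count of 591, at the 95.4th percentile of all cDC1 only regions. Region 17 (chr5:148200465-148201061) followed with a −log10 q of 99.5, 9 footprints and up to 464 tags. The regions listed in pDC only were weaker. Region 8 (chr5:148152515-148153051), 804 bp to the right of region 7, had a −log10 q of 23.4 and 11 footprints with up to 184 tags, and region 23 (chr5:148221396-148221796) had a −log10 q of 9.57 and up to 78 tags. Between regions 12 and 19 a run of 6 regions, 13 to 18, was listed in cDC1 only, with −log10 q of 8.20 to 99.5; this run was singled out after its values were seen.

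At Csf1r, the M-CSF receptor, most regions were weak and 1 was far stronger in pDC. Region 4 (chr18:61250331-61251254) stood at a −log10 q of 6.22 in cDC1, at the 14.0th percentile of the list, and of 60.9 in pDC, at the 86.5th, and it was the strongest pDC interval of the window. Its fold enrichment was 2.78 in cDC1 and 7.07 in pDC. Its best pair, of footprints 50 bp wide in both lists, had 69 tags in cDC1 and 261 in pDC. After scaling it was 12.4 times higher in pDC (9.47 to 16.4), and 0.179% of all paired regions had a ratio this low. Summed over both pairs of the region the log2 ratio was -2.99, and without pairing it was -3.13, against -3.63 for the best pair. Fewer tags were counted in cDC1 even before scaling, although that library was the deeper one.

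Within region 4, the highest tag counts of the cell types also lay in different places. The intervals themselves overlapped, from 61250331 to 61250954 in cDC1 and from 61250333 to 61251254 in pDC. The 4 cDC1 footprints with the most tags, 80 to 102, lay between 61250495 and 61250637. In pDC, 9 of the 10 footprints, with 191 to 272 tags, lay from 61250783 to 61250999. The second pair, in the left part, had 96 tags in cDC1 and 140 in pDC, a log2 ratio of -2.26, against -3.63 for the pair in the right part. Region 5 (chr18:61251452-61251970), the neighbour on the right, had no pair. Its highest tag count was 110 in cDC1, or 33.6 after scaling, and 104 in pDC. Without pairing this gave a log2 ratio of -1.63, toward pDC, and 14.0% of all such regions passed 2-fold in that direction. The direction at region 4 was the same under every scaling tried, with log2 ratios of -2.72 to -3.81, but no pair was left where footprints had to share 80% of their bases.

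Regions 9 and 19 of Csf1r were open in both cell types, and region 9 was higher in cDC1. Region 9 (chr18:61268052-61268668) had a cDC1 −log10 q of 210 and a pDC one of 22.0. Its best pair had 869 tags in cDC1 and 149 in pDC, a scaled ratio of 1.78 (1.49 to 2.13). The nearest neighbour on the left, region 8 (chr18:61267222-61267632), was listed in cDC1 only, with a −log10 q of 33.0 and 383 tags. Region 19 (chr18:61335890-61337259), at the right border of the window and 35357 bp from the next region, was the strongest in cDC1, with a cDC1 −log10 q of 318, a pDC one of 52.5 and a scaled ratio of 1.29 (1.13 to 1.49). That ratio is of its best pair, and the other pairs of region 19 had log2 ratios of -0.03 (-0.32 to 0.26) and 0.12 (-0.09 to 0.34). Which gene region 19 belongs to was not determined.

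Region 13 (chr18:61285704-61286287) was the strongest region listed in cDC1 only at Csf1r, with a −log10 q of 58.9, 9 footprints and up to 241 tags. The 3 regions listed in pDC only lay side by side, without a cDC1 interval between them. These were regions 16 (chr18:61293408-61293890), 17 and 18 (chr18:61299965-61300532), with a −log10 q of 16.8, 4.32 and 13.0 and highest tag counts of 137, 50 and 95. Of the 7 Csf1r regions with a pair, 2 had a log2 ratio above 0 and 5 below, and the median was -0.17.

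At Csf2rb, the beta chain of the GM-CSF receptor, the strongest 2 pDC intervals of the 3 loci were found, 1 of them with no cDC1 interval. Region 8 (chr15:78129967-78130554) had the largest −log10 q of pDC at any of the 3 loci, 109, at the 95.8th percentile of the pDC list, and one of 122 in cDC1, at the 78.0th of the cDC1 list. A footprint of 12 bp with the same ends in both lists had 373 tags in cDC1 and 334 in pDC. After scaling it was 2.93 times higher in pDC (2.52 to 3.41), and its log2 ratio of -1.55 was as low in 5.65% of all paired regions. Fold enrichment, which is scaled within each library, was 9.58 in cDC1 and 9.68 in pDC. With scaling by all reads the log2 ratio was -0.64, which is no longer 2-fold.

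Region 16 (chr15:78163304-78163936) was listed in pDC only. Its −log10 q of 97.3 stood at the 94.3rd percentile of the pDC list and, among the 10254 regions of pDC only, at the 99.1st. Its fold enrichment was 8.71. It held 7 footprints, the highest with 394 tags, beside 398 in pDC at Flt3 region 20. The other regions of pDC only at Csf2rb were region 11 (chr15:78145328-78145936), with a −log10 q of 22.7 and up to 115 tags, and region 3, with 16.7 and up to 118 tags.

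The neighbour of region 16 carried a gradient. Region 15 (chr15:78162301-78162848), which ends 455 bp to the left of it, held 17 cDC1 and 14 pDC footprints, of which 8 pairs could be made. From left to right the log2 ratios of these pairs were -0.31, -0.34, -0.38, -0.51, -0.59, -0.70, -0.87 and -1.11, so that the pDC share grew toward region 16. The leftmost pair had 161 tags in cDC1 and 61 in pDC, the third 367 in cDC1 and 146 in pDC, and the rightmost 193 in cDC1 and 127 in pDC. Neighbouring footprints had similar tag counts, so the 8 values are not 8 separate measurements. Region 15 was singled out after its values were seen.

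Regions 5 and 12 had the largest −log10 q in cDC1 at Csf2rb. Region 5 (chr15:78108740-78109281) led with 217 in cDC1, against 8.85 in pDC. Its fold enrichment was 12.2 in cDC1 and 3.35 in pDC. Its only pair, at the left flank, had 305 tags in cDC1 and 49 in pDC, a scaled ratio of 1.90 (1.40 to 2.62). The 4 cDC1 footprints at its centre, with 590 to 656 tags, had no partner in pDC, where the highest tag count was 53. Without pairing, the highest tag counts of both cell types gave a log2 ratio of 1.92. Region 12 (chr15:78151194-78151684) was nearly even, with a cDC1 −log10 q of 154 and a pDC one of 32.4, 742 tags in cDC1 and 188 in pDC and a scaled ratio of 1.20 (1.03 to 1.42), and 6 of its footprints formed pairs. Regions listed in cDC1 only were weaker, led by region 4 (chr15:78106647-78107032) with a −log10 q of 50.7 and 365 tags and region 7 (chr15:78128977-78129410) with 25.9 and 166 tags, which lies 556 bp to the left of region 8.

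**Figure D3:**
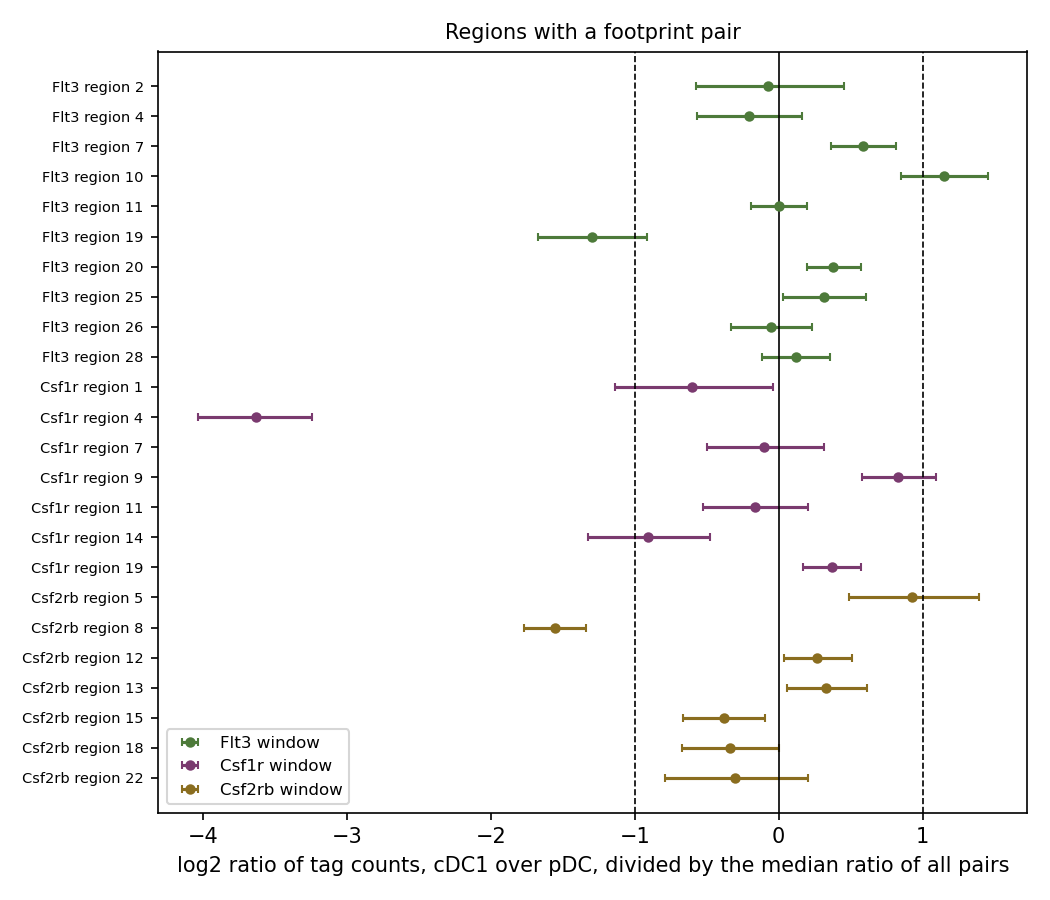
Log2 ratio of tag counts, cDC1 over pDC, after division by the median ratio of all pairs (x axis), for the 24 regions with a footprint pair (y axis); bars are exact 95% intervals of counting error and dashed lines mark 2-fold. Csf1r region 4 at -3.63 and Csf2rb region 8 at -1.55 lie wholly past 2-fold toward pDC, and Flt3 region 10 at 1.15 is the highest value toward cDC1.

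Across the 3 windows, 24 of the 31 regions open in both cell types had a footprint pair. A difference of 2-fold or more toward cDC1 was found in 1 region (4.17%), against 8.93% of all paired regions, and toward pDC in 3 (12.5%), against 12.6%. These shares are near the background or rest on 1 region, so the windows as a group did not stand apart. The median log2 ratio was 0.06 in 10 Flt3 regions, -0.17 in 7 Csf1r regions and -0.30 in 7 Csf2rb regions, beside -0.01 over all paired regions. The exact interval left out a ratio of 1 in 15 of the 24 regions, beside 64.2% of all paired regions, and 2 regions, Csf1r region 4 and Csf2rb region 8, lay past 2-fold with their whole interval, beside 11.7%. The signs of these window medians depend on the scaling and the pairing. With mean tag counts, which add 0.36 to every log2 ratio, they were 0.42, 0.20 and 0.06. With all reads, which add 0.91, they were 0.97, 0.74 and 0.60. With reads in peaks, which add -0.18, they were -0.12, -0.35 and -0.49. Summed over all pairs of a region, the Flt3 median was -0.03. Without pairing, the medians were -0.004 at Flt3, -0.22 at Csf1r and 0.02 at Csf2rb. By all reads, 5 Flt3, 2 Csf1r and 3 Csf2rb regions passed 2-fold toward cDC1, beside 42.8% of all paired regions, and 1 region, Csf1r region 4, toward pDC, beside 3.36%.

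Footprints were found again in the other cell type about as often as elsewhere. Of the footprints of the Flt3 window, 29.9% of 147 in cDC1 (23.1 to 37.8%) and 43.8% of 105 in pDC (34.7 to 53.4%) had at least 50% of their bases in footprints of the other cell type. At Csf1r the shares were 24.7% of 77 in cDC1 and 30.4% of 56 in pDC, and at Csf2rb 28.1% of 128 in cDC1 and 44.7% of 76 in pDC. Over all footprints they were 28.6% in cDC1 and 44.4% in pDC. The pDC share at Csf1r was the lowest, and its Wilson interval of 19.9 to 43.3% ends just under the genome-wide value. Inside regions open in both cell types, 47.1% of 210 cDC1 and 53.0% of 183 pDC footprints were shared, beside 47.9% and 52.7% genome-wide. Shared footprints there had more tags, with medians of 440 against 212 for unshared ones in cDC1 and 139 against 90.5 in pDC. Genome-wide the same held, with 503 against 263 in cDC1 and 142 against 82 in pDC.

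Some footprints had exactly the same first and last base in both lists. This held for 12 of 64 pairs in the windows (18.8%, 11.1 to 30.0%), 6 at Flt3, 2 at Csf1r and 4 at Csf2rb, and for 21.0% of all pairs. They were 6 to 42 bp wide. Among them were the footprints that carried the difference in Flt3 region 19 and Csf2rb region 8, so that at these regions the same bases were marked in both cell types while tag counts differed after scaling. In Flt3 region 20, 2 of the 5 pairs had the same ends, of 11 bp and 9 bp.

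**Figure D4:**
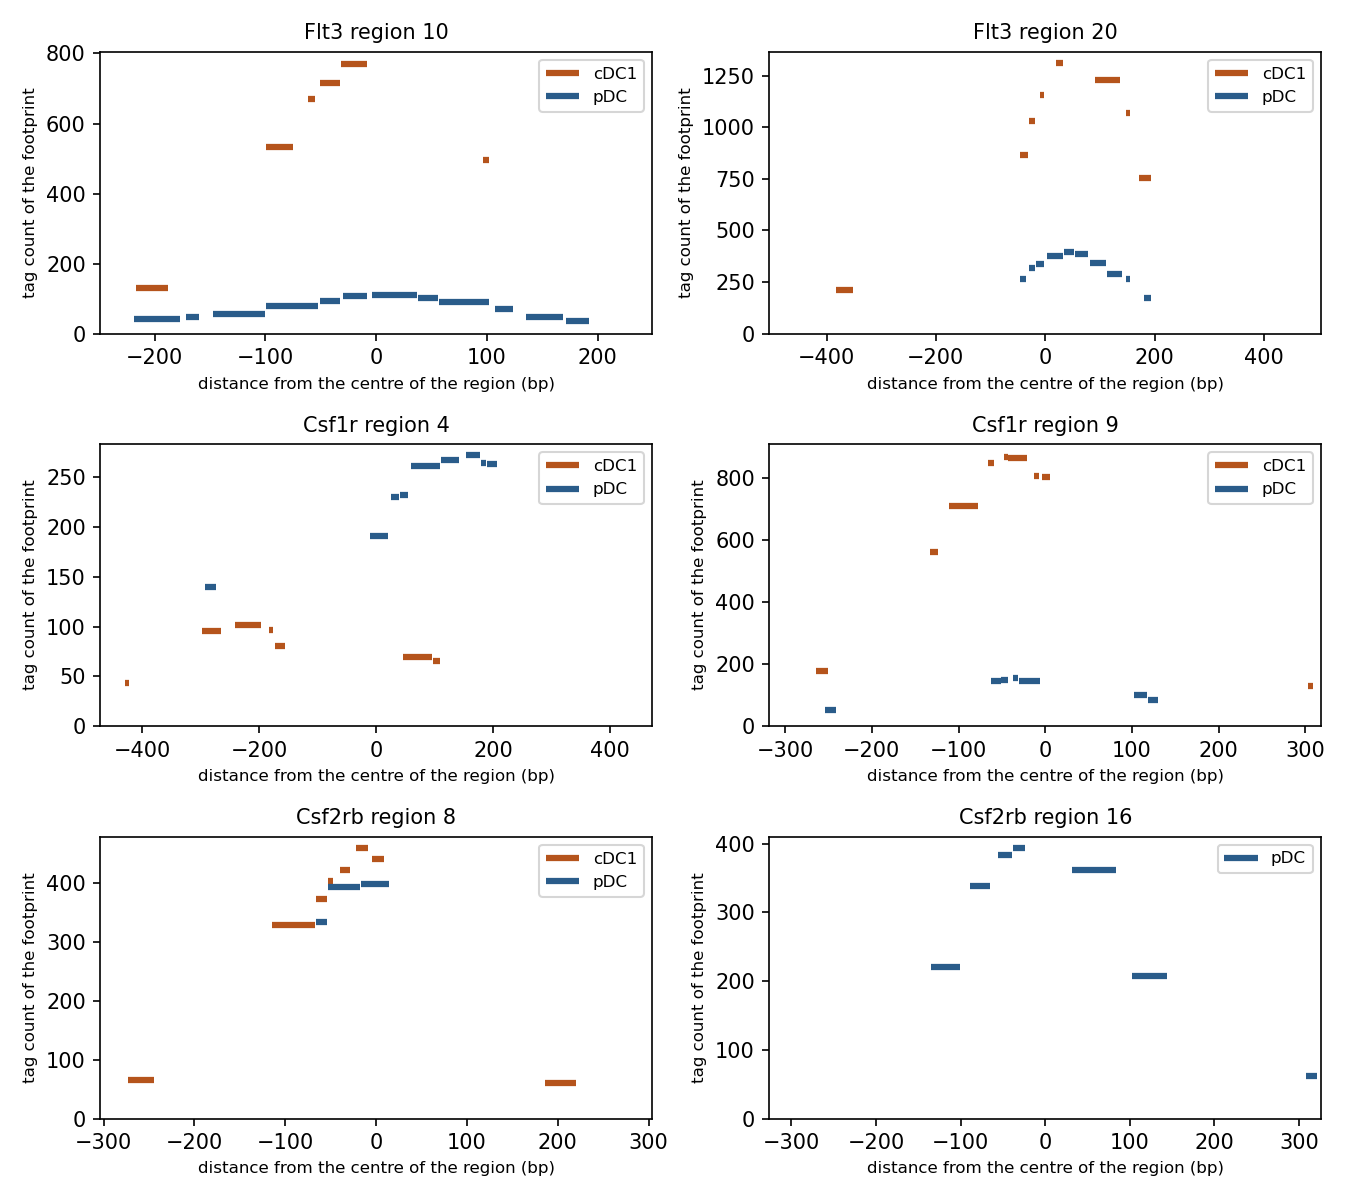
Footprints of 6 regions, each drawn as a bar over the bases it spans (x axis, distance from the centre of the region in bp) at its tag count (y axis, not scaled for library size), for cDC1 and pDC. At Csf1r region 4 the pDC footprints reach 272 tags to the right of the centre where cDC1 has 69 at most, at Csf2rb region 8 they reach 459 tags in cDC1 and 398 in pDC, and Csf2rb region 16 has footprints in pDC and none in cDC1.

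The regions listed in cDC1 only were set beside the pDC regions of the windows by scaled tag count. Of these 33 regions, 30 held a footprint. Their highest tag counts had a median of 141.5, and 43.2 after division by 3.28, while the 39 pDC regions of the windows had a median of 118 and a lowest value of 23. After this scaling, 6 of the 33 regions lay above the first quartile of the pDC regions, 82 tags, and 3 above their median, all of these at Flt3 (regions 6, 9 and 17). For the other 24 with a footprint the scaled value was below the first quartile, and 1 of them lay below the lowest pDC value. No footprint was held by 3 of the 33 regions, which have no such value. These counts were not made over all regions of cDC1 only, so they cannot be called particular to these loci. Whether the fewer reads of pDC, or its fewer reads in peaks, left regions out was not tested, and these cannot be told apart here. The 8 regions of pDC only had no interval in the deeper cDC1 library, and their highest tag counts in pDC ran from 50 to 394 with a median of 116.5.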

How the data were processed

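Omni-ATAC-seq of cDC1 and pDC (2 replicate samples each) was analysed from 1 list of peaks and 1 of footprints for each cell type, so no p-value was computed. Per the labels, the authors used Trim Galore for trimming, Bowtie2 for alignment to mm9, SAMtools for filtering and MACS2 for peaks (versions: not given in the sources used here). HINT-ATAC, by the study's methods, gave the footprints. Listed positions pass the end of GRCm38 on 8 of 21 chromosomes, so coordinates were kept as mm9. The authors deposited 3 MACS2 columns that bear on this, the fold enrichment (a ratio to the background), the −log10 q and a score of 10 times that −log10 q, and the score was not used. The deposited footprint values were read as tag counts that the authors did not scale; over which window is not stated.

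Peak lines of equal bounds became 1 interval, with the largest −log10 q among them. Footprint pairs were made 1 to 1, the most shared bases first, at 50% of both, and the pair with the most tags stood for a region. Regions named are, per window, the 3 with the largest −log10 q in each cell type, the 2 strongest of each cell type only and all those at least 2-fold apart. Any other region named was chosen after its values were seen. Windows, lists and rules were chosen with earlier results of these data known. Pairing and merging were checked on simulated data. Python 3.11.15, numpy 2.4.6, pandas 2.3.3, scipy 1.17.1 and matplotlib 3.10.9 were used. Promoter sequence is from RefSeq (GRCm38.p6), whose promoter entry for Flt3 was used.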

Additional observations from a re-analysis of the deposited data

How the results depend on the processing

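No paired analysis was possible because each cell type has 1 list over its replicates, and leaving out a replicate was likewise not run. Of 111 comparisons of a window's main values with an alternative, 76 stayed close to the value given above and 35 moved. Each of the 4 regions past 2-fold in the report kept its direction wherever it had a pair. With lists limited to a −log10 q of 10 and above, Flt3 kept 1 region of pDC only (8.34% of all regions) and Csf1r 2 of both (36.3%). With lists limited to 50 and above, Flt3 had 2 regions of both and 0 of pDC only, Csf1r 2 of cDC1 only, 1 of both and 1 of pDC only, and Csf2rb 7, 1 and 1, beside 73.2%, 23.0% and 3.78% of all regions. With the cDC1 list limited to the length of the pDC list, regions of cDC1 only numbered 5 at Flt3, 2 at Csf1r and 3 at Csf2rb, and Csf1r had 4 of both and 8 of pDC only, beside 26.0% of cDC1 only, 49.2% of both and 24.8% of pDC only over all regions. Windows shortened by 20 kb left 7 regions of cDC1 only at Csf2rb. With 80% of bases required, 15.6% of Csf1r footprints in cDC1, 28.6% of Flt3 footprints in pDC and 32.9% of Csf2rb footprints in pDC were shared (22.6% of all cDC1 and 34.2% of all pDC footprints); with the cDC1 footprint list limited, 40.0% at Flt3 and 44.6% at Csf2rb in cDC1 (40.3% of all). For regions at least 2-fold apart, scaling by mean tag count gave 0 toward pDC at Flt3 and 1 toward cDC1 at both Csf1r (region 9) and Csf2rb (region 5), beside 16.8% of all paired regions toward cDC1 and 7.43% toward pDC. Scaling by reads in peaks, which adds -0.18 to every log2 ratio, gave 0 toward cDC1 at Flt3 and 2 toward pDC at Csf1r (regions 4 and 14), beside 6.32% toward cDC1 and 16.2% toward pDC. Scaling by all reads gave 5 toward cDC1 at Flt3, 2 at Csf1r and 3 at Csf2rb, and 0 toward pDC at Flt3 and Csf2rb, and under it 42.8% of all paired regions passed 2-fold toward cDC1. Without pairing there were 2 toward pDC at Csf1r (regions 4 and 5) and 1 toward cDC1 at Csf2rb (region 5), beside 10.1% of all such regions toward cDC1 and 14.0% toward pDC, and with pairs at 80% of the bases 0 toward pDC at Csf1r, beside 10.4%. With the mean over summits, the largest −log10 q of Csf1r in cDC1 was 210, that of region 9. Apart from the scalings and the limits on lists, whose construction shifts these numbers, the cause was not tested.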
